A study of Arabidopsis with 12 samples.

Results

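The genes described here take part in the breakdown of the branched-chain amino acids leucine, isoleucine and valine in Arabidopsis thaliana. They were chosen by locus identifier, and all 10 were found among the 32833 genes of the deposited expression table: BCAT-2 (AT1G10070), BCE2, also called DIN3 (AT3G06850), DIN4 (AT3G13450), AT1G21400, IVD (AT3G45300), MCCA (AT1G03090), MCCB (AT4G34030), AT2G26800, ETFQO (AT2G43400) and D2HGDH (AT4G36400). Transcripts selected by their poly(A) tails were sequenced from leaves of seedlings that had grown in white light for 10 days. Shade, with red light at 0.17 of far-red, then lasted 6 h, during which the seedlings received sucrose or the sugar alcohol sorbitol at 30 mM. The 12 libraries form 4 groups of 3, which are phyA-211 with sucrose, phyA-211 with sorbitol, Col-0 with sucrose and Col-0 with sorbitol. Col-0 is the wild type, phyA-211 is a mutant allele of the far-red photoreceptor phytochrome A, and 1 allele was used. Every group was shaded, so the effect of shade itself was not measured. The labels do not say whether replicates came from separate cultures, or how many seedlings went into each, and p-values therefore reflect only library-to-library spread, which may be technical.

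Plants can respire branched-chain amino acids when carbohydrate is short. A branched-chain aminotransferase first removes the amino group in a reversible reaction, and the mitochondrial branched-chain 2-oxo acid dehydrogenase complex then decarboxylates the product and links it to coenzyme A. In the leucine branch, isovaleryl-CoA dehydrogenase, 3-methylcrotonyl-CoA carboxylase and hydroxymethylglutaryl-CoA lyase follow in the mitochondria. Electrons from isovaleryl-CoA dehydrogenase and from D-2-hydroxyglutarate dehydrogenase, an enzyme of lysine breakdown, pass through the electron transfer flavoprotein to ETFQO and on to ubiquinone.

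Expression is given as TPM, a level scaled by transcript length and by the total of the library, so levels of different genes can be compared. Depth is unknown because the table holds no read counts. Changes are log2 differences of TPM + 1 from a limma fit to the 19862 genes that reached 1 TPM in 3 or more libraries, and a gene is said to have risen or fallen where its 2-sided Benjamini-Hochberg adjusted p was under 0.05. All 10 genes passed that filter. PHYA transcript averaged 42.3 ± 4.25 and 36.2 ± 4.56 TPM in phyA-211 with sucrose and with sorbitol, and 279 ± 60.7 and 362 ± 20.7 TPM in Col-0 with the same sugars (SD, n = 3 each), following the labels. The summed level of 5 leaf markers lay between 36130.1 and 51913.6 TPM in 11 libraries and at 21553 TPM in replicate 3 of phyA-211 with sucrose. The 6 root markers summed to between 10.8 and 104 TPM, and the 4 shoot meristem markers to between 14.7 and 22.9 TPM. Most of the meristem sum was KNAT1, at 10.59 to 19.02 TPM, and STM, at 2.83 to 4.26 TPM, while CLV3 and WUS lay at or under 1.24 TPM.

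Replicates of 1 group did not always lie together, which touches every result below. In phyA-211 with sucrose the summed TPM of the 10 genes was 894, 1002 and 227 in replicates 1, 2 and 3. In phyA-211 with sorbitol it was 2925, 2425 and 2904, in Col-0 with sucrose 354, 330.1 and 329, and in Col-0 with sorbitol 1515, 1741 and 2840. Replicate 3 of phyA-211 with sucrose was thus below the Col-0 sucrose libraries while its sister libraries were above them, and replicate 3 of Col-0 with sorbitol was among the phyA-211 sorbitol libraries. For 9 of the 10 genes replicate 3 of phyA-211 with sucrose was the lowest of the 12 libraries, against 10.3% of all genes tested. The tests of the 10 genes are given with and without these libraries. Levels, ratios, ranks and profile distances are given over all 12.

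**Figure D1:**
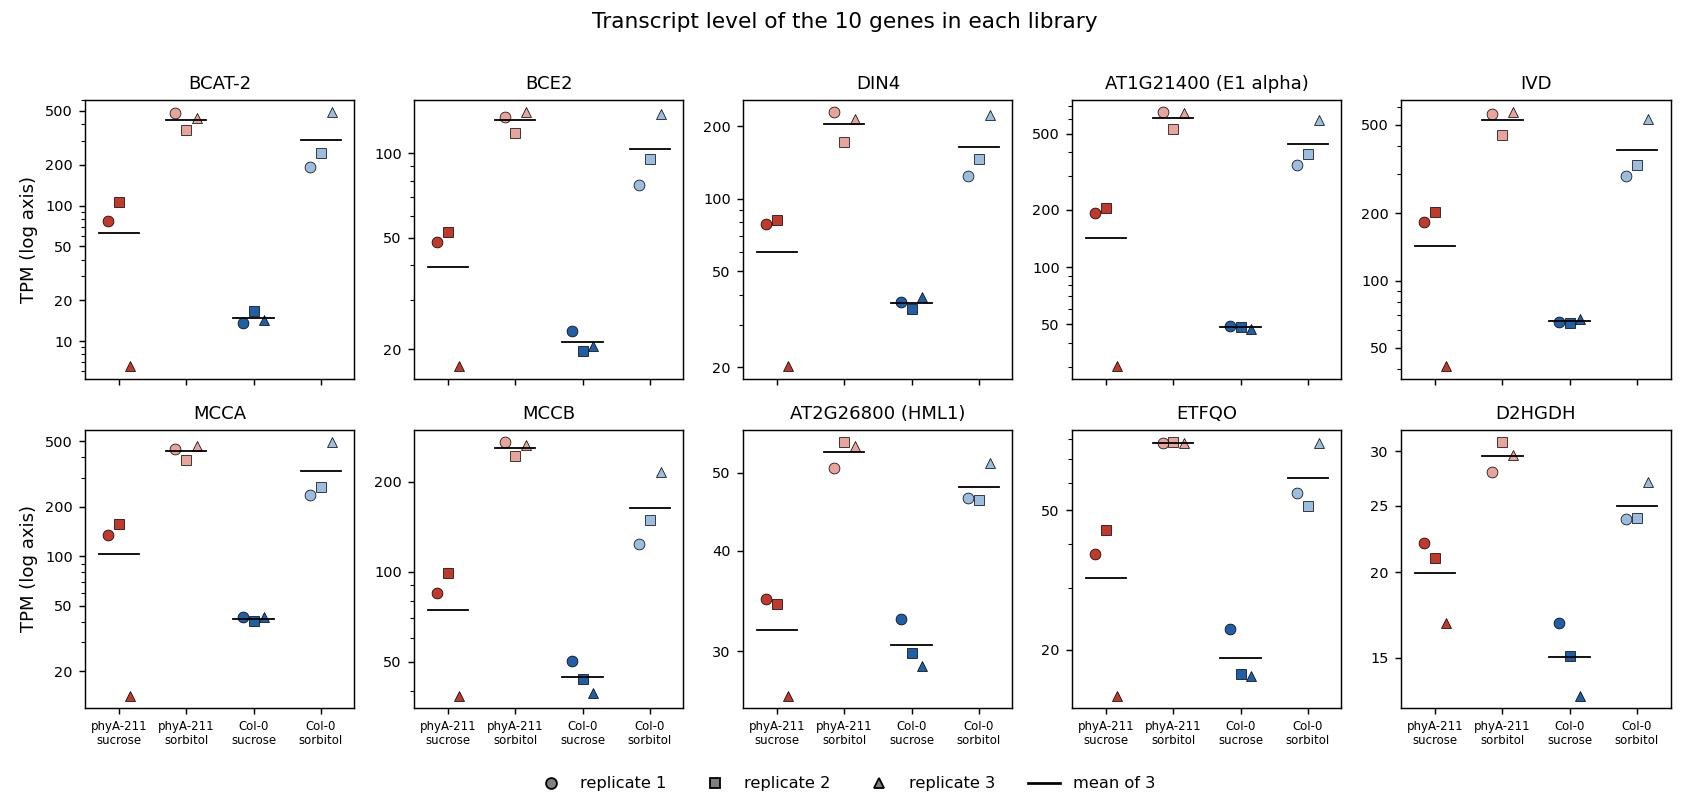
TPM (log axis) of each of the 10 genes in the 12 libraries, with 1 symbol per replicate number and a bar at the mean of 3. Sucrose libraries lie below sorbitol libraries of the same genotype in every panel, and in phyA-211 with sucrose replicate 3 lies below replicates 1 and 2.

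With sucrose, all 10 genes fell in both genotypes. The adjusted p-values ran from 0.00283 to 0.0154 in phyA-211 and from 0.00193 to 0.0114 in Col-0 (limma). Among all genes tested, 10.5% fell in phyA-211 and 9.95% in Col-0. The median log2 change of the 10 genes was -1.94 in phyA-211 and -2.14 in Col-0, against 0.11 and 0.08 over all genes tested. For every one of the 10 the sucrose and sorbitol libraries of a genotype did not overlap, a downward separation that 15.6% of all genes tested showed in phyA-211 and 17.6% in Col-0. Without both replicate 3 of Col-0 with sorbitol and replicate 3 of phyA-211 with sucrose, an alternative added after the values were seen, 10 of 10 fell in each genotype, against 8.65% and 9.39% of all genes. The size of the falls in phyA-211 depended on replicate 3 of the sucrose group. Without that library 10 of 10 still fell, against 7.67% of all genes, with log2 changes of -2.23 for BCAT-2 (SE 0.315, adjusted p = 0.00235), -1.61 for AT1G21400, -1.56 for MCCA, -1.49 for MCCB, -1.43 for IVD, -1.36 for BCE2, -1.34 for DIN4, -0.93 for ETFQO, -0.61 for AT2G26800 and -0.44 for D2HGDH (adjusted p = 0.0329). In Col-0, without replicate 3 of the sorbitol group, 9 of 10 fell, against 6.19% of all genes, and BCAT-2 changed by -3.78 (SE 0.84, adjusted p = 0.0194), AT1G21400 by -2.90, MCCA by -2.55 (not called), IVD by -2.23, BCE2 by -1.97, DIN4 by -1.84, MCCB by -1.60, ETFQO by -1.47, D2HGDH by -0.64 and AT2G26800 by -0.59.

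Single markers moved with the sugar too, and the genes named here were chosen after their values were seen. Of the 5 leaf markers, LHB1B1, a light-harvesting chlorophyll-binding protein, was the one called in Col-0, with a log2 change of -1.50 (adjusted p = 0.0413, and up to 0.156 without single libraries). In phyA-211 it was at -1.36 and did not pass (adjusted p = 0.0514), and LHB1B1 was at -0.65 there without replicate 3 of the sucrose group. Its level averaged 1210 TPM with sucrose and 2560 TPM with sorbitol in phyA-211, and 1060 and 3100 TPM in Col-0. The other 4 leaf markers, CAB1, LHCA1, RBCS1A and RBCS2B, did not pass in either genotype, with log2 changes between -0.42 and 0.33. Of the 6 root markers, TIP2;3, an aquaporin, was the one called in phyA-211, at -1.98 (adjusted p = 0.0411, and up to 0.116 without single libraries), and none was called in Col-0. The part of these markers in the falls was not tested. In whole leaf samples, fewer cells of a type and less RNA per cell cannot be told apart.

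BCAT-2 carried the largest change of the 10, and where in the cell its enzyme acts was not measured. BCAT-1, the gene of a mitochondrial branched-chain aminotransferase, is described below and did not fall. BCAT-2, a branched-chain aminotransferase, measured 76.6, 105.7 and 6.57 TPM in the phyA-211 sucrose libraries, against 479, 361 and 444 TPM in phyA-211 with sorbitol. The Col-0 levels were 13.5, 16.7 and 14.4 TPM with sucrose, against 192, 242 and 487 TPM with sorbitol. Every sucrose library was below every sorbitol library of its genotype, and the 3 Col-0 sucrose libraries lay close together while those of phyA-211 did not. The log2 change was -3.42 in phyA-211 (SE 0.752, adjusted p = 0.00869) and -4.17 in Col-0 (SE 0.752, adjusted p = 0.00356), so that the mean level with sucrose was 14.7% and 4.83% of that with sorbitol. In Col-0 3 of the 19862 genes tested had a larger fall, and in phyA-211 9 had.

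The 3 genes of the branched-chain 2-oxo acid dehydrogenase complex come next in the pathway. AT1G21400, which the table describes as a thiamin diphosphate-binding protein and which holds the place of the E1 alpha subunit here, measured 193, 203 and 30.2 TPM in the phyA-211 sucrose libraries, against 649, 532 and 643 TPM with sorbitol. In the Col-0 sucrose libraries the values were 49.04, 48.6 and 47.4 TPM, against 342, 391 and 595 TPM with sorbitol. The Col-0 sucrose libraries differed by less than 2 TPM, and no sucrose library reached any sorbitol library. Its log2 change was -2.50 in phyA-211 (SE 0.549, adjusted p = 0.00874) and -3.13 in Col-0 (SE 0.549, adjusted p = 0.00316).

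DIN4, named as dark-inducible and placed at the E1 beta subunit, measured 78.3, 81.7 and 20.2 TPM in the phyA-211 sucrose libraries, against 228, 172 and 214 TPM with sorbitol. Its Col-0 values were 37.2, 34.8 and 38.9 TPM with sucrose, against 124, 147 and 223 TPM with sorbitol. The groups of a genotype did not overlap. BCE2, the acyltransferase E2 subunit and likewise named for induction in the dark, measured 48.4, 52.4 and 17.4 TPM in the phyA-211 sucrose libraries, against 135, 118 and 140.2 TPM with sorbitol. The Col-0 levels were 23.2, 19.8 and 20.5 TPM with sucrose, against 77.1, 95.3 and 139 TPM with sorbitol. DIN4 and BCE2 fell by about the same amount as each other in both genotypes, with log2 changes of -1.98 and -1.85 in phyA-211 (adjusted p = 0.0076 and 0.00446) and of -2.08 and -2.20 in Col-0 (adjusted p = 0.00558 and 0.00193, limma).

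The 4 genes of the leucine branch did not fall alike. IVD, isovaleryl-CoA dehydrogenase, measured 183, 203 and 41.5 TPM in the phyA-211 sucrose libraries, against 556, 448 and 567 TPM with sorbitol. In the Col-0 sucrose libraries the values were 65.1, 64.4 and 67.3 TPM, against 294, 330 and 532 TPM with sorbitol. With sucrose its mean was higher than those of the other 9 genes in Col-0, at 65.6 ± 1.49 TPM, and at 143 ± 88.0 TPM in phyA-211 it lay beside AT1G21400 at 142 ± 97.1 TPM (SD, n = 3 each). Its log2 change was -2.16 in phyA-211 (SE 0.466, adjusted p = 0.00818) and -2.49 in Col-0 (SE 0.466, adjusted p = 0.00407).

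MCCA encodes the biotin-carrying alpha subunit of 3-methylcrotonyl-CoA carboxylase and MCCB its beta subunit. MCCA measured 135, 158 and 14.2 TPM in the phyA-211 sucrose libraries, against 449.8, 386 and 470.1 TPM with sorbitol, and in Col-0 it measured 42.6, 40.2 and 42.4 TPM with sucrose, against 235, 265 and 493 TPM with sorbitol. MCCB measured 85.0, 99.2 and 38.5 TPM in the phyA-211 sucrose libraries, against 271, 244 and 265 TPM with sorbitol, and in Col-0 it measured 50.4, 43.7 and 39.3 TPM with sucrose, against 124, 149 and 215 TPM with sorbitol. Both were lower in every sucrose library than in any sorbitol library of the genotype, and MCCA changed over a wider range. The log2 change of MCCA was -2.66 in phyA-211 (SE 0.676, adjusted p = 0.0154) and -2.88 in Col-0 (SE 0.676, adjusted p = 0.0114). For MCCB it was -1.90 in phyA-211 (SE 0.298, adjusted p = 0.00283) and -1.82 in Col-0 (SE 0.298, adjusted p = 0.00248). Of the 10 genes, MCCA was the one whose sucrose call was lost under some of the alternatives run. Its adjusted p was 0.0535 in Col-0 without replicate 3 of Col-0 with sorbitol, and in phyA-211 0.0554 without replicate 3 of phyA-211 with sorbitol and 0.0621 when only the phyA-211 libraries were fitted.

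AT2G26800, an aldolase-family gene set at the lyase that ends the leucine branch (HML1), moved far less. It measured 34.8, 34.3 and 26.4 TPM in the phyA-211 sucrose libraries, against 50.8, 54.6 and 54.03 TPM with sorbitol. Its Col-0 values were 32.9, 29.8 and 28.8 TPM with sucrose, against 46.5, 46.3 and 51.5 TPM with sorbitol. The groups were narrow and apart, and the log2 change was -0.73 in phyA-211 (SE 0.119, adjusted p = 0.00316) and -0.64 in Col-0 (SE 0.119, adjusted p = 0.00391). Over the 12 libraries its highest value was 2.07 times its lowest, against 74.1 times for BCAT-2.

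The electron carriers showed one larger and one smaller fall. ETFQO, which hands electrons to ubiquinone, measured 37.4, 43.9 and 14.8 TPM in the phyA-211 sucrose libraries, against 77.7, 78.3 and 77.7 TPM with sorbitol. The Col-0 levels were 22.9, 17.1 and 16.8 TPM with sucrose, against 55.99, 51.4 and 78.1 TPM with sorbitol. The phyA-211 sorbitol libraries agreed within 1 TPM, and replicate 3 of Col-0 with sorbitol matched them. Its log2 change was -1.39 in phyA-211 (SE 0.316, adjusted p = 0.01) and -1.65 in Col-0 (SE 0.316, adjusted p = 0.00442).

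D2HGDH, D-2-hydroxyglutarate dehydrogenase, measured 22.04, 20.96 and 16.9 TPM in the phyA-211 sucrose libraries, against 27.98, 30.9 and 29.6 TPM with sorbitol. In the Col-0 sucrose libraries the values were 16.9, 15.1 and 13.2 TPM, against 23.9, 23.99 and 27.1 TPM with sorbitol. The log2 change was -0.55 in phyA-211 (SE 0.128, adjusted p = 0.0109) and -0.70 in Col-0 (SE 0.128, adjusted p = 0.00374). It was the gene whose lowest library was not replicate 3 of phyA-211 with sucrose but replicate 3 of Col-0 with sucrose.

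**Figure D2:**
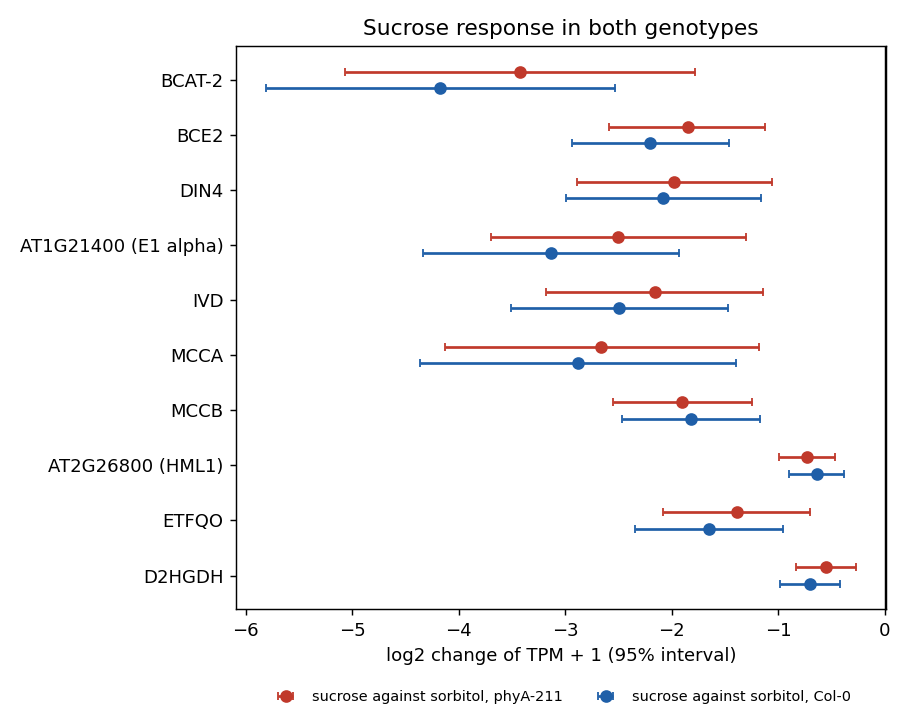
Log2 change of TPM + 1 with sucrose against sorbitol for the 10 genes in phyA-211 and in Col-0, with 95% intervals from limma. Every interval lies below 0, and the changes run from -3.42 (BCAT-2) to -0.55 (D2HGDH) in phyA-211 and from -4.17 (BCAT-2) to -0.64 (AT2G26800) in Col-0.

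The falls differed in size, and the order of levels differed between the sugars. In phyA-211 with sorbitol the means ran from AT1G21400 at 608 ± 65.8 TPM through IVD at 524 ± 66.1, MCCA at 435 ± 43.8 and BCAT-2 at 428 ± 60.8 TPM, down to D2HGDH at 29.5 ± 1.48 TPM. In Col-0 with sorbitol the same 4 led, at 443 ± 134, 385 ± 128, 331 ± 141 and 307 ± 158 TPM. The spread between libraries was wide, but every Col-0 sorbitol library held the 4 in this order. They lay at 342, 294, 235 and 192 TPM in replicate 1 and at 595, 532, 493 and 487 TPM in replicate 3. With sucrose BCAT-2 was the fifth in phyA-211, at 62.9 ± 50.9 TPM, and the last of the 10 in Col-0, at 14.8 ± 1.64 TPM, beside D2HGDH at 15.1 ± 1.82 TPM. BCE2 was the seventh and ETFQO the eighth in all 4 groups.

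Ratios between partners also differed between the sugars. The MCCA level was 1.59, 1.59 and 0.368 times that of MCCB in phyA-211 with sucrose, against 1.66, 1.58 and 1.78 times with sorbitol. In Col-0 it was 0.847, 0.921 and 1.08 times with sucrose, against 1.90, 1.78 and 2.29 times with sorbitol. The Col-0 groups were apart, while replicates 1 and 2 of phyA-211 with sucrose were close to its sorbitol libraries. AT1G21400 over the sum of DIN4 and BCDH BETA1, a second E1 beta gene, was 1.97, 1.96 and 0.979 in phyA-211 with sucrose, against 2.26, 2.45 and 2.41 with sorbitol. In Col-0 it was 0.949, 1.00 and 0.898 with sucrose, against 2.13, 2.08 and 2.11 with sorbitol.

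BCAT-2 neighbours BCAT-1, the gene of a mitochondrial branched-chain aminotransferase, and BCAT-1 did not fall with sucrose. BCAT-1 measured 46.3, 44.6 and 43.6 TPM in the phyA-211 sucrose libraries, against 39.3, 42.7 and 35.9 TPM with sorbitol. Its Col-0 values were 33.3, 26.96 and 26.5 TPM with sucrose, against 24.4, 24.04 and 24.3 TPM with sorbitol. Its sucrose change did not pass the test, with a log2 change of 0.19 in phyA-211 (95% interval -0.05 to 0.43, adjusted p = 0.218) and 0.24 in Col-0 (-0.00 to 0.48, adjusted p = 0.143). BCAT-2 made up 62.3%, 70.3% and 13.1% of the summed TPM of the pair in phyA-211 with sucrose, against 92.4%, 89.4% and 92.5% with sorbitol. In Col-0 its share was 28.9%, 38.2% and 35.1% with sucrose, against 88.7%, 91.0% and 95.3% with sorbitol. The sequences of the pair were not compared here, so whether they share stretches whose reads may have been split between them is unknown.

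The paralogs of the E1 genes differed from each other. BCDH BETA1, the second E1 beta gene, averaged 17.4 ± 5.97 TPM with sucrose and 52.2 ± 6.60 TPM with sorbitol in phyA-211, and 14.0 ± 0.367 and 45.6 ± 11.7 TPM in Col-0 with the same sugars (SD, n = 3). It fell with DIN4, by 1.58 and 1.61 on the log2 scale in phyA-211 and Col-0 (adjusted p = 0.00268 and 0.00159, limma). DIN4 made up between 65.5% and 80.0% of the pair in all 12 libraries. AT5G09300, which shares the family description of AT1G21400, was scarce, at 4.47 ± 0.533 TPM with sucrose and 2.33 ± 0.146 TPM with sorbitol in phyA-211, a rise of 0.71 on the log2 scale (adjusted p = 0.0146, and 0.05 without replicate 2 of the sucrose group). In Col-0 it averaged 3.02 ± 0.630 TPM with sucrose and 2.49 ± 0.650 TPM with sorbitol, which did not pass (adjusted p = 0.436).

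**Figure D3:**
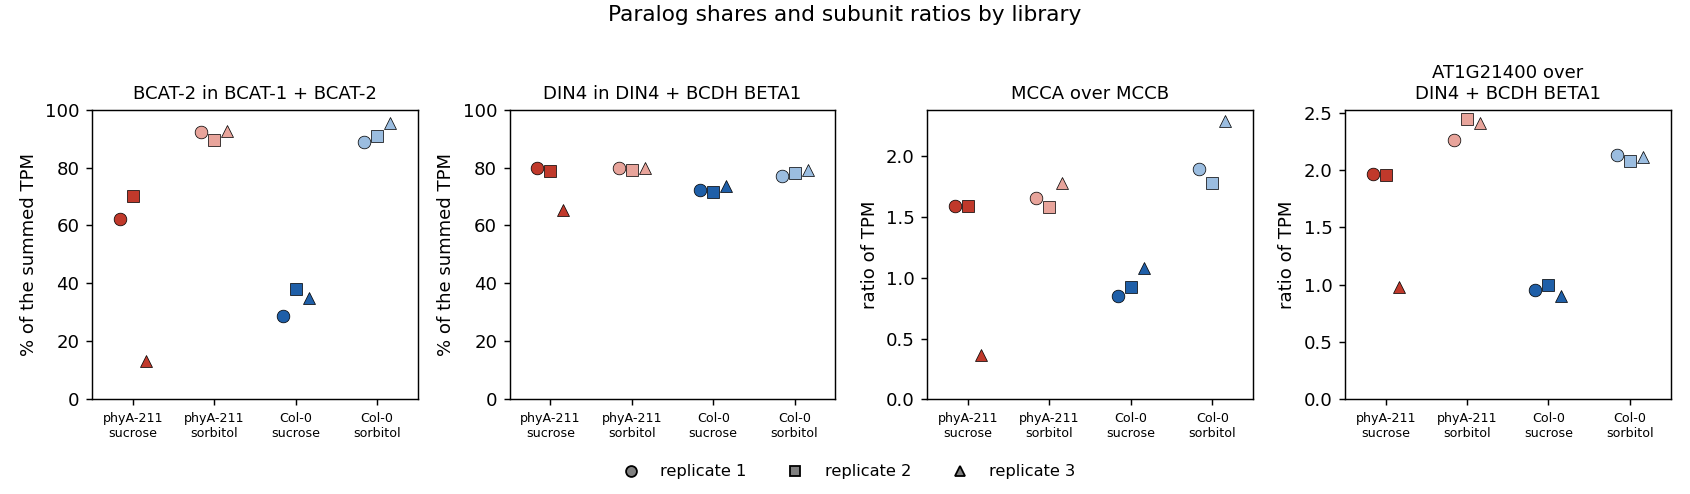
Share of BCAT-2 in the summed TPM of BCAT-1 and BCAT-2, share of DIN4 in that of DIN4 and BCDH BETA1, and the TPM ratios MCCA over MCCB and AT1G21400 over both E1 beta genes, 1 symbol per library. In Col-0 the BCAT-2 share is 28.9% to 38.2% with sucrose and 88.7% to 95.3% with sorbitol, and replicate 3 of phyA-211 with sucrose has the lowest share, 13.1%.

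Between the genotypes, 1 library decided the count. With sucrose, none of the 10 genes passed for phyA-211 against Col-0 (limma; D2HGDH alone had an unadjusted p under 0.05, 0.0116, as did 16.6% of all genes upward), whereas 4.15% of all genes tested rose and 3.25% fell. The fitted changes were all above 0 and ran from 0.05 (AT2G26800) to 1.33 (BCAT-2), with a median of 0.66 against 0.12 over all genes tested. AT2G26800 lay at -0.07 after median-ratio scaling and -0.06 after quantile normalization. Replicates 1 and 2 of phyA-211 with sucrose were above every Col-0 sucrose library for 10 of 10 genes, an arrangement that 26.5% of all genes tested showed. Replicate 3 was below every Col-0 sucrose library for 9 of 10. Both conditions together held for 2.80% of all genes tested. With library weights, which gave replicate 3 of phyA-211 with sucrose the lowest weight of the 12, 0.192, all 10 passed as higher in phyA-211, against 31.0% of all genes.

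Without replicate 3 of phyA-211 with sucrose, 9 of the 10 genes passed as higher in phyA-211 than in Col-0 with sucrose, against 4.71% of all genes. Without the second doubted library as well, replicate 3 of Col-0 with sorbitol, the count was again 9, against 5.41% of all genes. That alternative was added after the values were seen. Leaving out the lowest library of the phyA-211 group raises the difference by itself. AT2G26800 was the exception, and without replicate 3 of phyA-211 with sucrose it had a log2 change of 0.18 (SE 0.101, adjusted p = 0.331). BCAT-2 then had a log2 change of 2.53 (SE 0.315, adjusted p = 0.000905), AT1G21400 of 2.01 (SE 0.194, adjusted p = 0.000204), MCCA of 1.78 (SE 0.25, adjusted p = 0.00168) and IVD of 1.54 (SE 0.211, adjusted p = 0.00154). In TPM, the mean of the other two phyA-211 sucrose libraries was 6.14 times the Col-0 sucrose mean for BCAT-2 and 4.10 times for AT1G21400, and replicate 3 was 0.443 and 0.626 times that mean. In the same replicate 3 the 5 leaf markers summed to 21552.7 TPM, against 43981.3 and 39796.9 TPM in replicates 1 and 2, and the 6 root markers to 39.7 TPM, against 11.98 and 30.45 TPM. Over all 12 libraries, 1 of the 5 leaf markers was called lower in phyA-211 with sucrose (limma, adjusted p = 0.0116), against 3.25% of all genes. The log2 changes of the 5 ran from -1.12 to -0.01, and no root marker was called. RBCS2B averaged 1857 ± 519 TPM in phyA-211 and 3921 ± 216 TPM in Col-0 with sucrose (SD, n = 3 each). The part of these markers in the result was not tested.

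**Figure D4:**
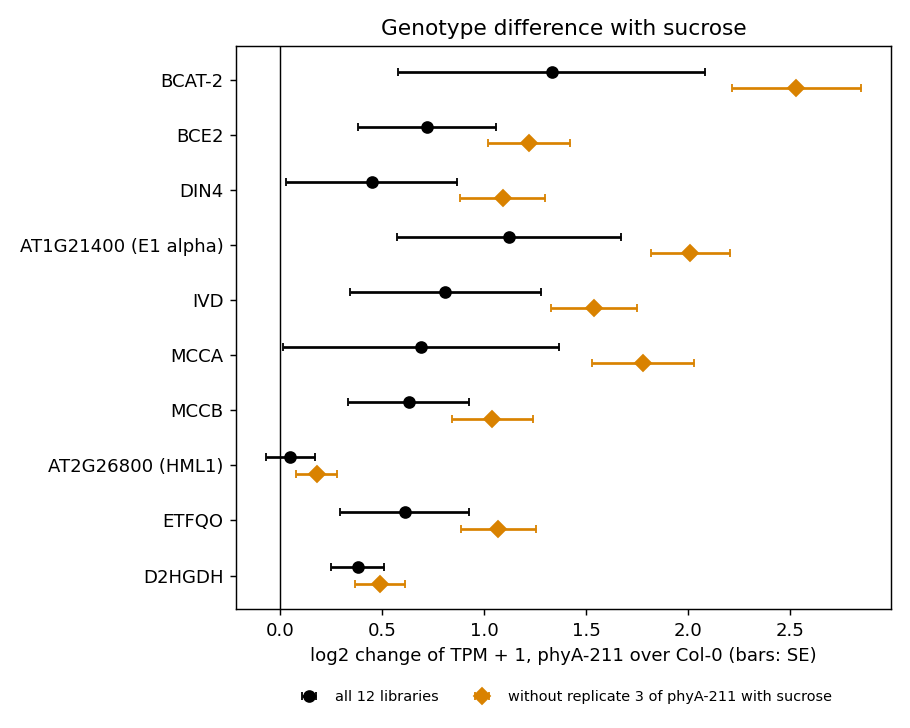
Log2 change of TPM + 1 for phyA-211 against Col-0 with sucrose, with SE bars, fitted to all 12 libraries and without replicate 3 of phyA-211 with sucrose. Without that library BCAT-2 lies at 2.53, against 1.33 with all 12, and every bar is shorter.

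With sorbitol, too, none of the 10 genes passed for phyA-211 against Col-0 (limma; MCCB alone had an unadjusted p under 0.05, 0.035, as did 8.31% of all genes upward), against 0.775% of all genes that rose and 1.38% that fell. The changes ran from 0.14 (AT2G26800) to 0.71 (MCCB), with a median of 0.42 against 0.09 over all genes. All 3 phyA-211 sorbitol libraries were above replicates 1 and 2 of Col-0 with sorbitol for 10 of 10 genes, as for 19.7% of all genes tested. Replicate 3 of Col-0 was the highest of its group for all 10, a pattern that was not counted over all genes. For MCCB and D2HGDH the groups did not overlap, and 13.4% of all genes were apart in that direction. With library weights 4 of the 10 passed as higher in phyA-211 with sorbitol, against 13.7% of all genes. Without replicate 3 of Col-0 with sorbitol alone, none of the 10 passed, against 0.763% of all genes that rose. Without that library and replicate 3 of phyA-211 with sucrose, 7 of 10 passed, against 2.14% of all genes, with log2 changes from 0.59 (DIN4) to 0.97 (BCAT-2). AT2G26800, ETFQO and D2HGDH did not pass then, at adjusted p = 0.308, 0.0613 and 0.205. This pair of libraries was picked after the values were seen, and leaving out the highest library of the Col-0 group raises the difference by itself. Replicate 3 of phyA-211 with sucrose has no part in the means compared here and acts through the spread shared by all groups. The count is therefore a description only.

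The size of the sucrose change was not shown to differ between the genotypes. For the interaction, in which the Col-0 log2 change is subtracted from the phyA-211 one, none of the 10 genes passed (limma, adjusted p = 0.999 for each), none had an unadjusted p under 0.05 (2.12% of all genes did, upward), and 0.0101% of all genes passed upward. BCAT-2 had the largest value of the 10, 0.75, with a 95% interval of -1.58 to 3.07, so a difference of several-fold in either direction stayed within its error. For AT2G26800 the value was -0.09, with an interval of -0.46 to 0.28. Without both replicate 3 of Col-0 with sorbitol and replicate 3 of phyA-211 with sucrose, AT1G21400 passed with a value of 1.29 (SE 0.158, adjusted p = 0.0472), the other 9 genes did not, and 0.0203% of all genes passed upward. Both libraries were picked after the values were seen. Replicate 3 of phyA-211 with sucrose was the lowest of its group for AT1G21400, so leaving it out raises the value by itself. Without single libraries the adjusted p of AT1G21400 was 0.155 or more, so the call is a description only.

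BCAT-1 did differ between the genotypes. It rose in phyA-211 against Col-0 by 0.62 on the log2 scale with sucrose (SE 0.11, adjusted p = 0.006) and by 0.67 with sorbitol (SE 0.11, adjusted p = 0.00819). Each phyA-211 library was above each Col-0 library of the same sugar, with 19.2% and 13.4% of all genes tested apart in that direction. The call held without any single library.

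A chosen list of 12 further breakdown genes, which need not cover the rest of the pathway, was mixed. With sucrose 5 fell and 3 rose in phyA-211, and 6 fell and 1 rose in Col-0, while 10.5% of all genes tested fell and 16.9% rose in phyA-211, and 9.95% fell and 12.1% rose in Col-0. The median log2 change was -0.05 in phyA-211 and -0.16 in Col-0. ETFBETA, the beta subunit of the electron transfer flavoprotein, averaged 43.8 ± 8.88 TPM with sucrose and 69.3 ± 2.96 TPM with sorbitol in phyA-211, and 25.8 ± 1.30 and 59.4 ± 19.2 TPM in Col-0 (adjusted p = 0.0276 and 0.00315). Its phyA-211 call was lost without sorbitol replicate 1 or 3 or sucrose replicate 3, at adjusted p = 0.0732, 0.086 and 0.0995. AT4G20930, described as a 6-phosphogluconate dehydrogenase family gene, averaged 7.28 ± 0.962 TPM with sucrose and 11.3 ± 1.25 TPM with sorbitol in phyA-211, and 5.44 ± 0.750 and 10.1 ± 0.490 TPM in Col-0 (adjusted p = 0.0126 and 0.00311, with the first at 0.0607 without replicate 3 of the phyA-211 sorbitol group). The rises, named after their values were seen, were AT5G09300, mtLPD2 and AT4G31810 in phyA-211 and AT4G31810 in Col-0. The call of mtLPD2, a lipoamide dehydrogenase, was lost after median-ratio scaling (adjusted p = 0.0751) and at adjusted p up to 0.136 without single libraries. In phyA-211 the falls numbered 3 without replicate 1 of the sorbitol group (8.27% of all genes), 2 without its replicate 3 (4.97%) and 3 without replicate 3 of the sucrose group (7.67%), and the rises 1 without replicate 2 of the sucrose group (12.8%).

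Genes of lysine, methionine, phytol and hydroxyglutarate breakdown, 6 in all, mostly fell with sucrose as well. The falls numbered 5 in each genotype, against 10.5% of all genes in phyA-211 and 9.95% in Col-0. The median log2 change was -1.35 in phyA-211 and -1.96 in Col-0, against 0.11 and 0.08 over all genes tested. AT4G33150, which encodes the enzyme with lysine-ketoglutarate reductase and saccharopine dehydrogenase activities that begins lysine breakdown, averaged 60.1 ± 24.96 TPM with sucrose and 249 ± 13.1 TPM with sorbitol in phyA-211. In Col-0 it averaged 35.1 ± 6.15 TPM with sucrose and 184 ± 62.7 TPM with sorbitol. ALDH7B4, an aldehyde dehydrogenase, changed by -2.05 in phyA-211 and -2.61 in Col-0 (adjusted p = 0.00253 and 0.000782), and AT1G07040 by -2.06 and -2.40 (adjusted p = 0.00256 and 0.001, limma). Without replicate 3 of phyA-211 with sucrose the phyA-211 falls numbered 4 (7.67% of all genes fell), and AT4G33150, ALDH7B4 and AT1G07040 changed by -1.75, -1.64 and -1.68. In Col-0 without replicate 3 of the sorbitol group they changed by -2.05, -2.36 and -2.11, and the falls numbered 5 (6.19% of all genes fell). AT3G56840, a FAD-dependent oxidoreductase family gene, was the member that did not pass, at adjusted p = 0.732 and 0.28.

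Of 15 genes of branched-chain amino acid synthesis, 10 rose and 1 fell with sucrose in phyA-211, against 16.9% of all genes that rose and 10.5% that fell. In Col-0 11 rose and 1 fell, against 12.1% and 9.95% of all genes. The median log2 change was 0.55 in phyA-211 and 0.51 in Col-0, against 0.11 and 0.08 over all genes tested. IMD1, an isopropylmalate dehydrogenase, averaged 27.4 ± 15.5 TPM with sucrose and 8.42 ± 4.01 TPM with sorbitol in phyA-211, and 33.7 ± 4.55 and 4.81 ± 2.61 TPM in Col-0 (adjusted p = 0.0248 and 0.00264). The phyA-211 call of IMD1 was lost without sorbitol replicate 1 or 3, without sucrose replicate 3 and with only the phyA-211 libraries fitted, at adjusted p = 0.0938, 0.0593, 0.0939 and 0.0585. IMD2 and IMD3, named after their values were seen, changed less in Col-0, by 0.36 and 0.76 on the log2 scale, against 2.68 for IMD1. Which pathway each enzyme of the list serves in these leaves was not measured. BCAT3, an aminotransferase of the same family as BCAT-2, averaged 99.8 ± 29.3 TPM with sucrose and 50.6 ± 7.20 TPM with sorbitol in phyA-211, and 110.2 ± 8.92 and 51.6 ± 9.58 TPM in Col-0 (adjusted p = 0.00774 and 0.00366). AT3G23940, a dehydratase family gene, rose by 1.24 and 1.28 on the log2 scale (adjusted p = 0.00343 and 0.00241). The gene that fell in both, named after its values were seen, was AT2G31810, described as a small subunit of acetolactate synthase (adjusted p = 0.0143 in phyA-211, 0.0604 with only those libraries fitted, and 0.00572 in Col-0). Without single libraries the rises in phyA-211 were as few as 6, without replicate 1 or replicate 3 of its sorbitol group, where 9.02% and 6.80% of all genes rose. In Col-0 they numbered 7 without replicate 1 (9.25% of all genes) and 6 without replicate 3 (5.78%) of the sorbitol group, and 7 without replicate 1 (7.03%) and 6 without replicate 2 (6.82%) of the sucrose group.

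**Figure D5:**
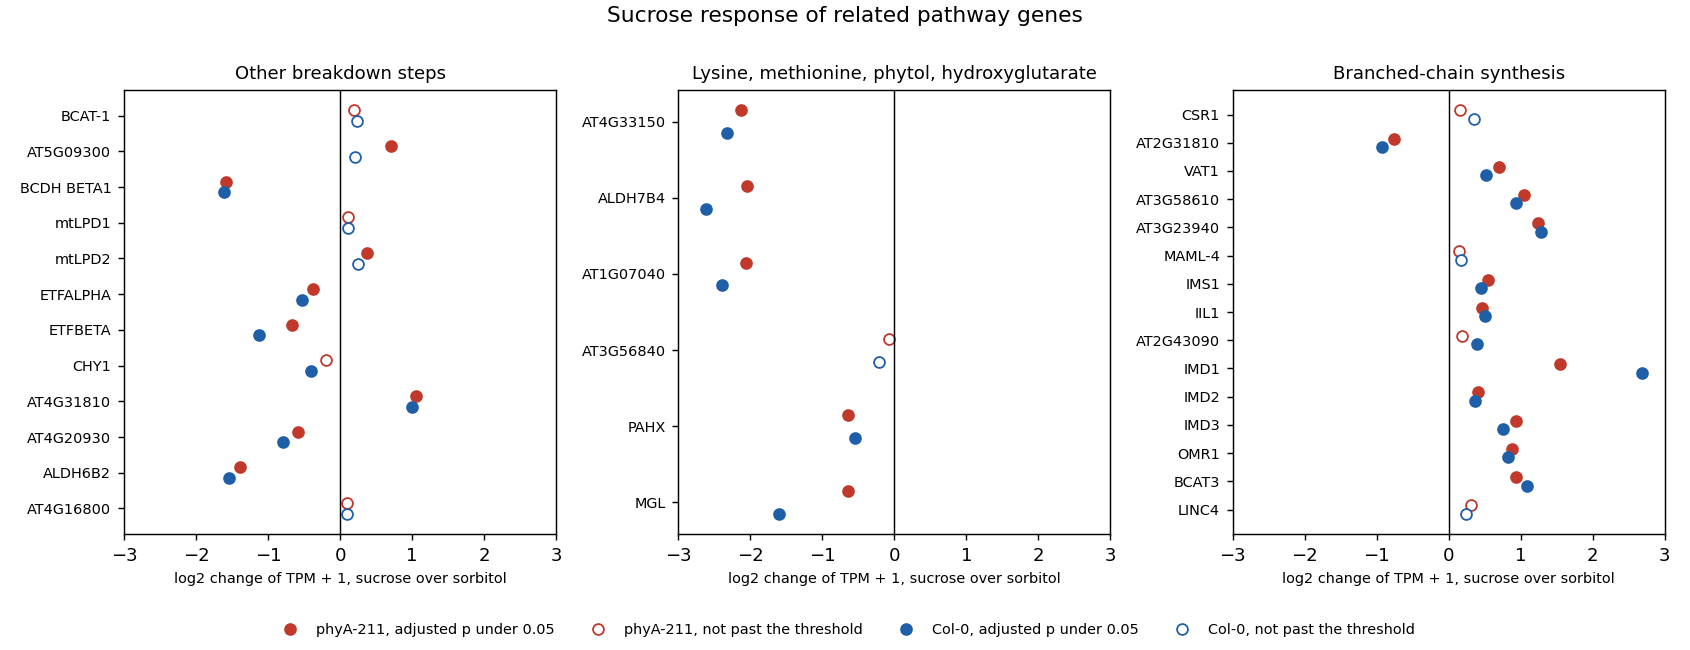
Log2 change of TPM + 1 with sucrose against sorbitol in phyA-211 and Col-0 for other breakdown genes, for genes of lysine, methionine, phytol and hydroxyglutarate breakdown and for synthesis genes. Filled circles passed at adjusted p under 0.05. Among the 15 synthesis genes, 10 in phyA-211 and 11 in Col-0 have filled circles above 0.

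The profile over the 12 libraries was compared with those of all other genes tested, as the root mean square distance between centred log2 values and the mean profile of the 10. BCE2 and DIN4 lay nearest to that mean, at 0.0994 and 0.113, and BCAT-2, AT2G26800 and D2HGDH farthest, at 1.01, 0.813 and 0.818. The median over all genes tested was 1.24, but the 10 genes made the mean profile, which by itself brings them nearer to it. The distance also depends on the size of a change. The highest library was 74.1, 2.07 and 2.34 times the lowest for BCAT-2, AT2G26800 and D2HGDH. The 5 nearest genes outside the 10 were AT5G57655, a xylose isomerase family gene (0.145), AAE5, an acyl activating enzyme (0.146), AKINBETA1, described as a kinase beta subunit (0.152), PDS1, 4-hydroxyphenylpyruvate dioxygenase (0.161), and ACBP3, an acyl-CoA-binding protein (0.175). AKINBETA1 averaged 74.5 ± 39.8 TPM with sucrose and 200.1 ± 10.3 TPM with sorbitol in phyA-211, and 39.8 ± 2.87 and 166 ± 24.3 TPM in Col-0. The libraries share the sugar groups and the 2 libraries that stand apart, so nearness is a description only.

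Of the 10 genes, 6 overlap another annotated gene in RefSeq's TAIR10.1 table, and whether strand was used in counting is not given in the sources used here. The partner AT1G10090 of BCAT-2 averaged 10.8 TPM with sucrose and 12.7 TPM with sorbitol in phyA-211, and 14.6 and 12.7 TPM in Col-0. For BCE2, DIN4 and ETFQO the partners AT3G06840, AT3G13445 and AT2G43410 averaged between 12.3 and 32.7 TPM in the 4 groups, and AT4G36390, which overlaps D2HGDH, was at 68.1 and 46.6 TPM in phyA-211 and at 76.3 and 53.0 TPM in Col-0, with sucrose and with sorbitol. AT1G04157, which overlaps MCCA, was at 1.81 and 3.96 TPM in phyA-211 and at 1.48 and 5.40 TPM in Col-0. AT1G03100 overlaps MCCA too, and its level was not examined.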

How the data were processed

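The authors deposited 1 table of TPM values with 2 decimals for 12 libraries, per the file headers, whose columns sum to between 998274.11 and 998846.46. fastp, cutadapt, HISAT2, DESeq2 and TAIR10 are named in the submitters' processing notes without roles, and the program behind the TPM values is not given in the sources used here. TPM keeps no read counts, so depth is unknown and no counting interval is given. Groups came from the sample titles, and columns were matched by library name.

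The 19862 genes that reached 1 TPM in 3 or more libraries were transformed to log2(TPM + 1), which understates changes of low genes, and limma 3.58.1 (R 4.3.3) was used for the fit (4 group means, eBayes with trend, no replicate block, 8 residual and 3.68 prior degrees of freedom). P-values are 2-sided and Benjamini-Hochberg adjusted over all genes tested. The procedure was tested on simulated data. The 10 genes and the lists were chosen with earlier results of these data known. All 10 genes are named, with paralogs, up to 3 genes per list with the smallest adjusted p for sucrose, and the 5 nearest profiles. RefSeq's TAIR10.1 table, in which all 59 listed identifiers were found, gave names and neighbours. Alternatives were another pseudocount, filters, scalings, library weights (gene-by-gene estimate, as the iterative one did not converge), the compared groups alone, a replicate block and leaving out libraries. Every column was assigned to a library, and no sequence is shown because no sequence table was used here.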

Additional observations from a re-analysis of the deposited data

How the results depend on the processing

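The falls of the 10 genes with sucrose were followed over 21 alternatives, which share most of their libraries. Counted per gene, genotype and alternative, direction and call were kept in 417 of 420 results, and the 3 exceptions all concerned MCCA. The number of genes falling was 9 to 10 without single libraries in phyA-211 and in Col-0. Of all genes, 982 to 2095 then fell in phyA-211 and 1124 to 2356 in Col-0. The number higher in phyA-211 with sucrose was 10 with library weights (31.0% of all genes rose) and 0 to 9 without single libraries (254 to 930 of all genes). It was 9 without both replicate 3 of Col-0 with sorbitol and replicate 3 of phyA-211 with sucrose (5.41%), a choice made after the values were seen. With sorbitol it was 4 with library weights (13.7% of all genes), 0 without any single library (49 to 319 of all genes) and 7 without both (2.14%). For the interaction it was 1 without both (0.0203% of all genes). Signs near 0 turned for AT2G26800 between genotypes with sucrose, at -0.07 with median-ratio scaling, -0.06 with quantile normalization and -0.02 to 0.18 without single libraries. For the interaction, MCCB lay at 0.19 with library weights, at 0.11 without both libraries and at -0.34 to 0.33 without single libraries. The other interactions that turned without single libraries ran over -0.24 to 0.74 for DIN4, -0.07 to 1.06 for IVD, -0.38 to 1.32 for MCCA, -0.16 to 0.03 for AT2G26800 and -0.03 to 0.72 for ETFQO. The cause was not tested. Replicate numbers were not treated as pairs in the fit. Deviations from group means correlated between -0.268 and 0.31 for the same number. Different numbers were not compared, so whether libraries of the same number share a batch was not tested. With the replicate block 10 of 10 genes fell in each genotype and 0 passed in the other comparisons, so it changed no call of the 10. Of all 19862 genes, 2005 then fell with sucrose in phyA-211 and 1848 in Col-0. Between genotypes 637 rose and 649 fell with sucrose, and 138 rose and 275 fell with sorbitol. Median-ratio scaling moved the median log2 change of all genes with sucrose to -0.02, against 0.11, in phyA-211, and between genotypes with sucrose to 0.01, against 0.12. The share of called genes that were higher was then 48.0%, against 61.6%, and 38.5%, against 56.1%. Over all genes, library weights called 6158 as higher in phyA-211 with sucrose, against 824 in the fit reported. The interaction was not refitted with only the groups compared, since all groups enter it. Depth is unknown, so its limits cannot be given.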
